A study of Danio rerio with 48 samples.

Results

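The globin genes described here are 10 of the 25445 genes in the deposited count table, picked by symbol. Earlier results of these data were known when they were chosen. Embryonic α globins are encoded by hbae1.1, hbae1.3, hbae3 and hbae5, and embryonic β globins by hbbe1.1, hbbe1.2, hbbe1.3 and hbbe2. The adult α and β chains are represented by hbaa1 and hbba1. The symbols of the adult genes hbaa2 and hbba2, and of a further hbae1 gene, hbae1.2, are not in the count table. A filter on low counts left 20723 genes to test, among them all 8 embryonic globins. Neither of the 2 adult genes passed it, so these are described by their counts.

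Haemoglobin, the oxygen carrier of red blood cells, is assembled from α and β globin chains that each hold a heme group. Zebrafish, like mammals, make one set of chains in the red cells of the embryo and another in red cells formed later, a replacement known as haemoglobin switching. In the zebrafish genome α and β globin genes lie side by side, often on opposite strands, in a larger and a smaller cluster.

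The RNA came from heads of larvae of a mixed wild type line, cut off in front of the swim bladder, with 15 heads pooled in each library. From 0 dpf (days post fertilization) the animals were kept in 0.4% DMSO, the vehicle, alone or with PFHxS (potassium perfluorohexane-1-sulfonate, a persistent fluorinated surfactant) at 7.87, 14 or 25.1 µM. Each of these 4 exposures was collected at 4 and at 5 dpf, which gives 8 groups of 6 polyA RNA libraries, 48 in all. A library averages over its larvae, and nothing in the labels links a pool to a clutch. The tests therefore rest on how far pools of one group lay apart, some of which may come from the handling of the samples. In such bulk samples fewer red cells and less globin RNA per red cell cannot be told apart. Total counts per library ran from 16585400 to 39217600 with a median of 22861800, and levels are given as CPM (counts scaled to 1000000 per library) with TMM factors, a trimmed mean that sets libraries to a common level.

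By the positions in the deposited table (build GRCz11, per the submitters' processing notes) the larger cluster lies on chromosome 3 between nprl3 (which ends at 55079743) and kank2 (which starts at 55161627). In order along the plus strand it holds hbba1 (55098457 to 55104311, minus strand), hbaa1 (55100045 to 55100937, plus), hbbe1.1 (55114097 to 55114875, plus), hbae1.1 (55120330 to 55121126, minus), hbbe1.2 (55122662 to 55123440, plus), hbae1.3 (55127549 to 55139128, minus), hbbe1.3 (55131289 to 55132053, plus) and hbae3 (55146418 to 55147789, minus). The smaller cluster on chromosome 12 holds hbae5 (20342451 to 20353542, plus) and hbbe2 (20349865 to 20350630, minus). All are annotated as protein coding, and the table gives whole genes rather than exons. Because hbbe1.3 lies inside the span of hbae1.3, hbbe2 inside that of hbae5, and hbaa1 inside that of hbba1, each on the other strand, reads could be shared within these pairs if their exons overlap. The table does not show whether they do, and the handling of strand is not given in the sources used here.

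The deposited values themselves show that reads were divided between neighbouring and near-identical genes. In 36 libraries both hbae5 and hbbe2 had values more than 0.02 reads from a whole number, and in all 36 their sum was whole within 0.02 reads. The same held in 6 of 6 such libraries for hbaa1 with its neighbour si:ch211-5k11.8 (55105066 to 55105967 on chromosome 3), and in 32 of 42 for the sum of hbbe1.1, hbbe1.2 and hbbe1.3. For hbae1.1 and hbae1.3 the sum was whole in 4 of 42, and for hbae1.3 and hbbe1.3 in 0 of 43. The split among the 3 hbbe1 copies and between hbae5 and hbbe2 is therefore uncertain, while sums over these genes depend less on it. For hbae1.1 and hbae1.3 both the single values and their sum are uncertain, since the sum was rarely whole. Exon lengths were not used here, so levels are compared within a gene and not between genes.

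The first comparison asks how globin RNA in the head differs between 4 and 5 dpf. The ages are spread unevenly over the columns of the count table. In DMSO the first 32 columns hold 2 libraries of 4 dpf and 5 of 5 dpf, and the last 16 hold 4 and 1. At 7.87 µM the first 32 hold 6 and 3, and the last 16 hold 0 and 3. The 3 embryonic β genes hbbe1.1, hbbe1.2 and hbbe1.3 fell in all 4 exposure groups, with log2 changes between -2.01 and -3.44. Most embryonic α genes fell by less, and hbbe2, an embryonic β gene of the smaller cluster, was called lower in the 7.87 µM group alone. Of the 8 embryonic genes, 6 were called lower at 5 dpf in DMSO at an adjusted p under 0.05, where 20.2% of all genes tested were called lower. The counts were 8 of 8 at 7.87 µM (23.7% of all genes), 6 of 8 at 14 µM (19%) and 6 of 8 at 25.1 µM (21.2%), and none was called higher. With a term for the block of columns, the calls of hbae1.1 and hbbe2 at 7.87 µM ended (edgeR adjusted p = 0.0507 and 0.105). The median log2 change of the 8 genes was -0.99 in DMSO, -1.98 at 7.87 µM, -1.40 at 14 µM and -1.45 at 25.1 µM, where the median over all genes tested was 0.20, 0.21, 0.22 and 0.26.

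**Figure D1:**
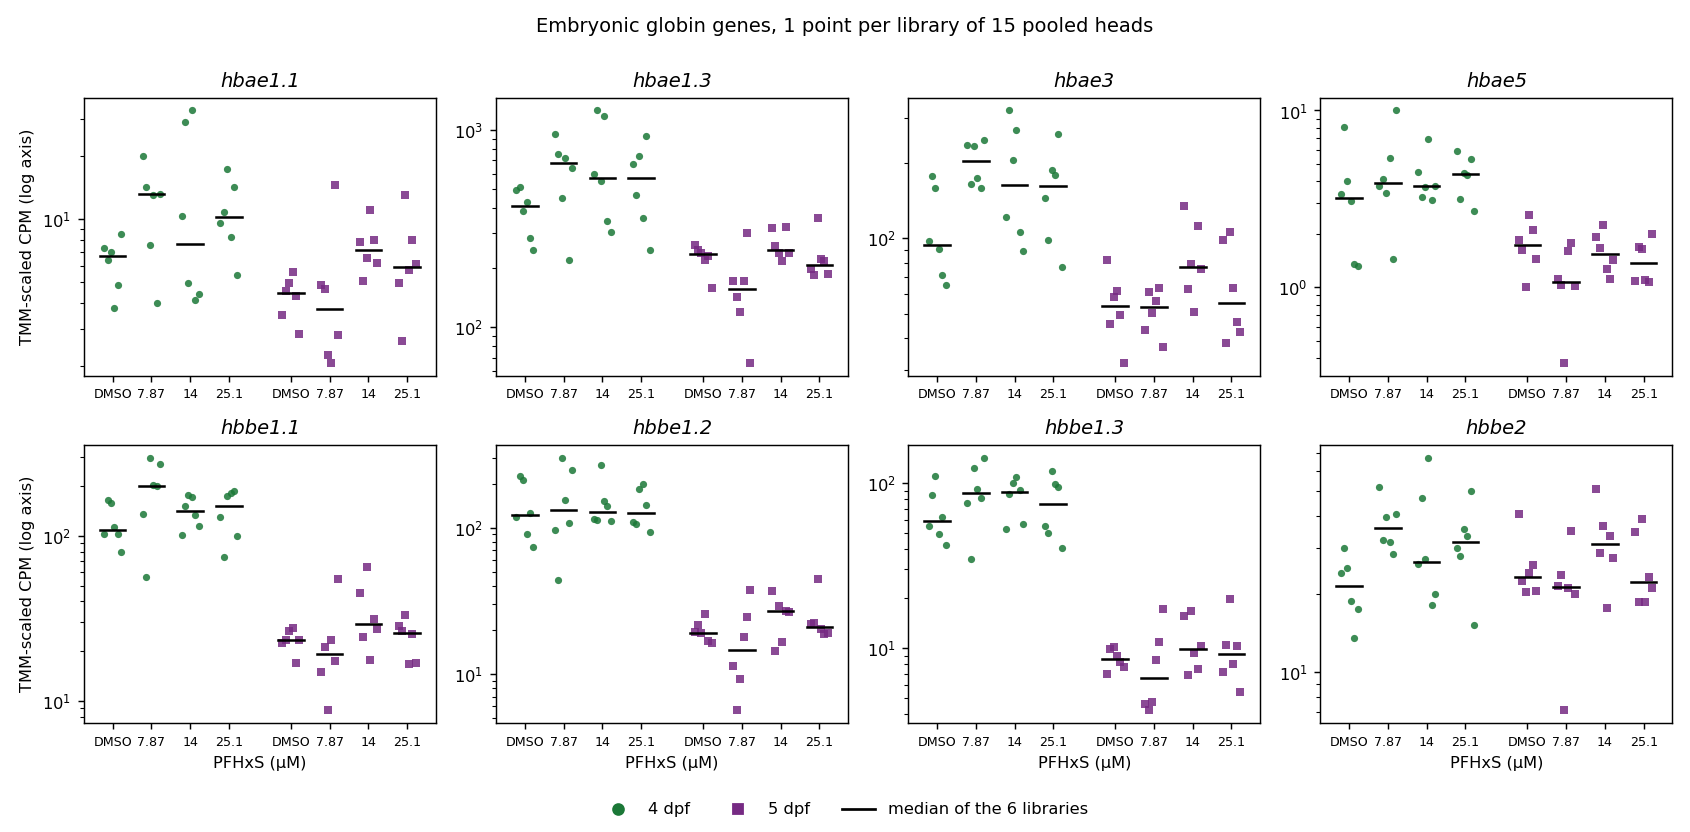
Level of each embryonic globin gene in every library, in TMM-scaled CPM on a log axis with its own range in each panel, by PFHxS concentration at 4 dpf (circles) and 5 dpf (squares); bars are medians of 6 libraries. The hbbe1 panels separate the ages in every exposure group, with DMSO medians of 58.7 and 8.60 CPM for hbbe1.3, while the hbbe2 panel does not.

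Among the embryonic α genes, hbae1.3 lies between hbbe1.2 and hbae3 in the larger cluster. In DMSO its level ran from 246 to 515 CPM with a median of 410 at 4 dpf, and from 159 to 259 CPM with a median of 233 at 5 dpf. The groups overlapped in 1 library, I of 4 dpf at 246 CPM, while the other 4 dpf libraries lay above all those of 5 dpf. It fell by 0.81 ± 0.32 (SE, 6 against 6 libraries) on the log2 scale in DMSO (edgeR quasi-likelihood test, Benjamini-Hochberg adjusted p = 0.0366). It fell in the exposed groups too, with log2 changes of -1.95 ± 0.33 at 7.87 µM, -1.41 ± 0.32 at 14 µM and -1.32 ± 0.32 at 25.1 µM. In DMSO the call did not hold without any 1 of 7 libraries (B, E, F or G of 4 dpf, or G, H or I of 5 dpf), with adjusted p from 0.0520 to 0.0811.

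The other hbae1 gene in the count table, hbae1.1, had group medians between 3.73 and 13.1 CPM. In DMSO it ran from 3.79 to 8.50 CPM at 4 dpf and from 2.84 to 5.58 CPM at 5 dpf, with overlapping groups. Its age difference was called only at 7.87 µM (log2 change -1.21 ± 0.44, edgeR adjusted p = 0.0194). That call ended without library A of 4 dpf (-0.999, adjusted p = 0.0601) or F or G of 5 dpf (-1.05 and -1.04, adjusted p = 0.0552 and 0.0540), and without library H of 5 dpf the log2 change was -1.86. It was -0.56 ± 0.44 in DMSO (adjusted p = 0.308), -0.94 ± 0.43 at 14 µM (adjusted p = 0.0766) and -0.70 ± 0.43 at 25.1 µM (adjusted p = 0.1797). At 14 µM it was called without library C, H or I of 4 dpf (adjusted p = 0.0449, 0.0391 and 0.0372).

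The embryonic α gene at the edge of the larger cluster, hbae3, ran in DMSO from 65.1 to 176 CPM with a median of 94.0 at 4 dpf, and from 31.9 to 81.9 CPM with a median of 53.8 at 5 dpf. All but 1 of the 5 dpf libraries lay under every 4 dpf library. It fell at every exposure, by 1.01 ± 0.30 on the log2 scale in DMSO (edgeR adjusted p = 0.00676), and with log2 changes of -1.96 ± 0.31 at 7.87 µM, -1.12 ± 0.30 at 14 µM and -1.26 ± 0.30 at 25.1 µM. At 7.87 µM its groups did not overlap, at 158 to 246 CPM against 36.8 to 63.4 CPM.

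On chromosome 12, hbae5 had medians of 3.21 to 4.39 CPM at 4 dpf and 1.07 to 1.74 CPM at 5 dpf. It fell in all 4 exposure groups, with a log2 change of -0.98 ± 0.36 in DMSO (edgeR adjusted p = 0.0243), -1.996 ± 0.37 at 7.87 µM, -1.38 ± 0.36 at 14 µM and -1.59 ± 0.36 at 25.1 µM. In DMSO 1 library, E of 4 dpf at 8.03 CPM, moved this value by more than any other: without it the log2 change was -0.56 and was not called (adjusted p = 0.201), nor was it without library F of 5 dpf (adjusted p = 0.0626). With total counts in place of TMM the calls of α genes ended for hbae1.3, hbae3 and hbae5 in DMSO and at 14 µM, for hbae1.1 at 7.87 µM, and for hbae1.3 and hbae3 at 25.1 µM.

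The 3 embryonic β copies of chromosome 3 gave the largest age differences of the family. In DMSO hbbe1.3 ran from 42.4 to 110 CPM with a median of 58.7 at 4 dpf, and from 6.99 to 10.2 CPM with a median of 8.60 at 5 dpf. All 6 libraries of 5 dpf lay under all 6 of 4 dpf, with a gap between 10.2 and 42.4 CPM. The fall of 2.96 ± 0.34 on the log2 scale was 7.78-fold (edgeR adjusted p = 2.01e-08), and 0.0965% of all genes tested had a log2 change at or below it. At 7.87, 14 and 25.1 µM this gene fell 10.9-fold, 7.42-fold and 7.45-fold.

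For hbbe1.2 the DMSO libraries ran from 73.9 to 225 CPM with a median of 122 at 4 dpf, and from 16.1 to 25.5 CPM with a median of 19.1 at 5 dpf. Its log2 change was -2.84 ± 0.37 in DMSO (edgeR adjusted p = 1.61e-07), -3.16 ± 0.38 at 7.87 µM, -2.58 ± 0.37 at 14 µM and -2.504 ± 0.37 at 25.1 µM. The third copy, hbbe1.1, ran in DMSO from 79.5 to 165 CPM with a median of 108 at 4 dpf, and from 16.9 to 27.6 CPM with a median of 23.3 at 5 dpf. Its log2 change was -2.37 ± 0.33 in DMSO (edgeR adjusted p = 4.46e-07), -3.06 ± 0.34 at 7.87 µM, -2.01 ± 0.33 at 14 µM and -2.53 ± 0.33 at 25.1 µM. For all 3 copies the 5 dpf libraries lay under the 4 dpf libraries in each of the 4 exposure groups.

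In contrast hbbe2 ran in DMSO from 13.5 to 30.1 CPM with a median of 21.4 at 4 dpf, and from 20.3 to 40.9 CPM with a median of 23.3 at 5 dpf. The ages overlapped in part, with 1 of the 6 libraries of 5 dpf (C, at 40.9 CPM) above all of 4 dpf and 0 below them. The log2 change was 0.26 ± 0.29 (edgeR adjusted p = 0.4934), near the median of 0.20 over all genes. It was -0.08 ± 0.29 at 14 µM (adjusted p = 0.851) and -0.31 ± 0.29 at 25.1 µM (adjusted p = 0.386), and it fell by 0.81 ± 0.29 at 7.87 µM (adjusted p = 0.0195). The call at 7.87 µM ended without library A of 4 dpf (-0.69, adjusted p = 0.0531) or F of 5 dpf (-0.63, adjusted p = 0.0676). The direction for this gene depended on the scaling. With total counts in place of TMM, which moves the median of all genes in DMSO to 0.88, hbbe2 was higher at 5 dpf in DMSO (log2 change 0.98, adjusted p = 0.00156) and at 14 µM (0.69, adjusted p = 0.0177), and its change was 0.05 at 7.87 µM (adjusted p = 0.880) and 0.49 at 25.1 µM (adjusted p = 0.0872). Across DMSO, 7.87, 14 and 25.1 µM, members whose age groups did not overlap numbered 3, 4, 4 and 4 of 8, against 28.4%, 13.4%, 13.6% and 29.2% of all genes tested.

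**Figure D2:**
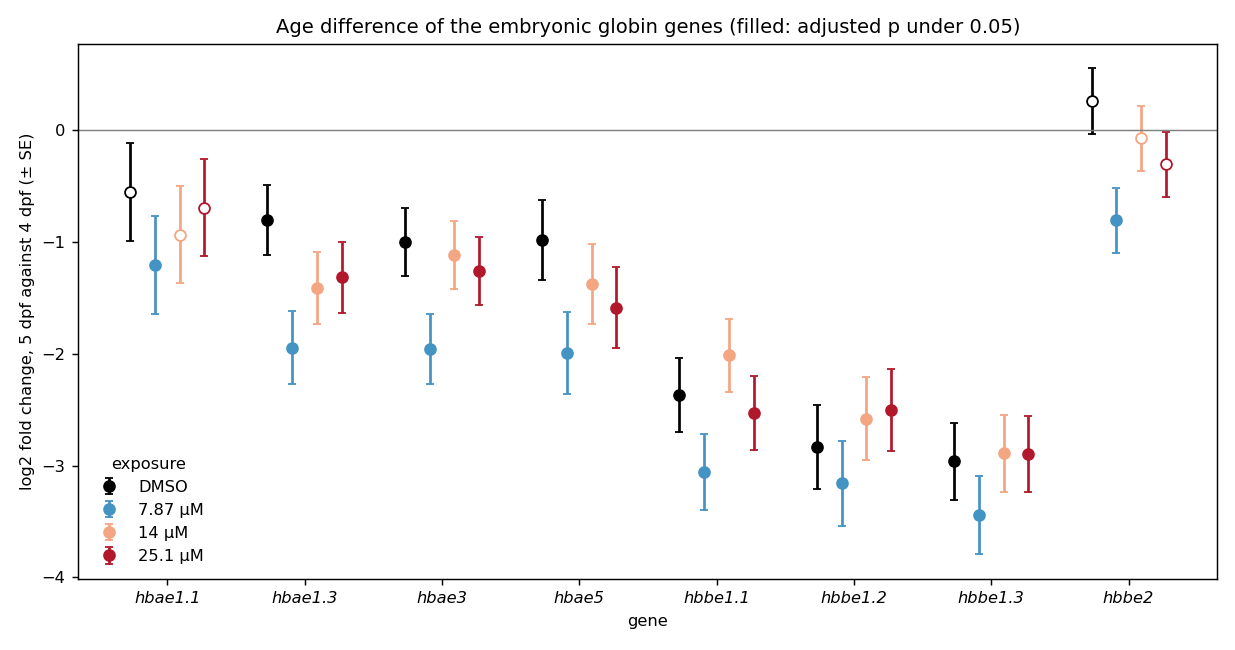
Log2 fold change of each embryonic globin gene at 5 dpf against 4 dpf, with its standard error, in DMSO and at each PFHxS concentration (6 against 6 libraries each); filled points had an adjusted p under 0.05. The hbbe1 genes lie between -2.01 and -3.44, the α genes between -0.56 and -1.996, and hbbe2 between -0.81 and 0.26.

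Ratios within a library do not depend on how libraries are scaled to each other, and they gave the same unequal change. In DMSO the 3 hbbe1 genes together made up 30.5% to 45.3% of the counts of the 10 globin genes at 4 dpf, with a median of 37.9%. At 5 dpf they made up 11.1% to 17.9%, with a median of 14.6%. The share of hbbe2 went the other way, from 2.03% to 3.28% at 4 dpf to 5.37% to 9.38% at 5 dpf. For each hbbe2 count there were 11.2 to 21.7 hbbe1 counts at 4 dpf in DMSO and 1.19 to 2.73 at 5 dpf, with no overlap. No test is given for these shares, since the genes that enter them were chosen with earlier results of these data known.

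Over all 24 libraries of each age the hbbe1 to hbbe2 ratio had medians of 13.6 and 2.33. A pair of libraries of 7.87 µM brought the ages into overlap: library B of 4 dpf had the lowest ratio of its age, 4.18, and library I of 5 dpf the highest of its age, 5.48. In library B of 4 dpf the hbbe1 share was 12.3%, at the level of 5 dpf, but its hbbe2 share of 2.94% lay among those of 4 dpf. In library I of 5 dpf the hbbe1 share was 46.4%, at the level of 4 dpf, but its hbbe2 share of 8.47% lay among those of 5 dpf. The log2 changes of the hbbe1 genes at 7.87 µM lay between -2.87 and -3.79 with any 1 library left out, and all were called.

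**Figure D3:**
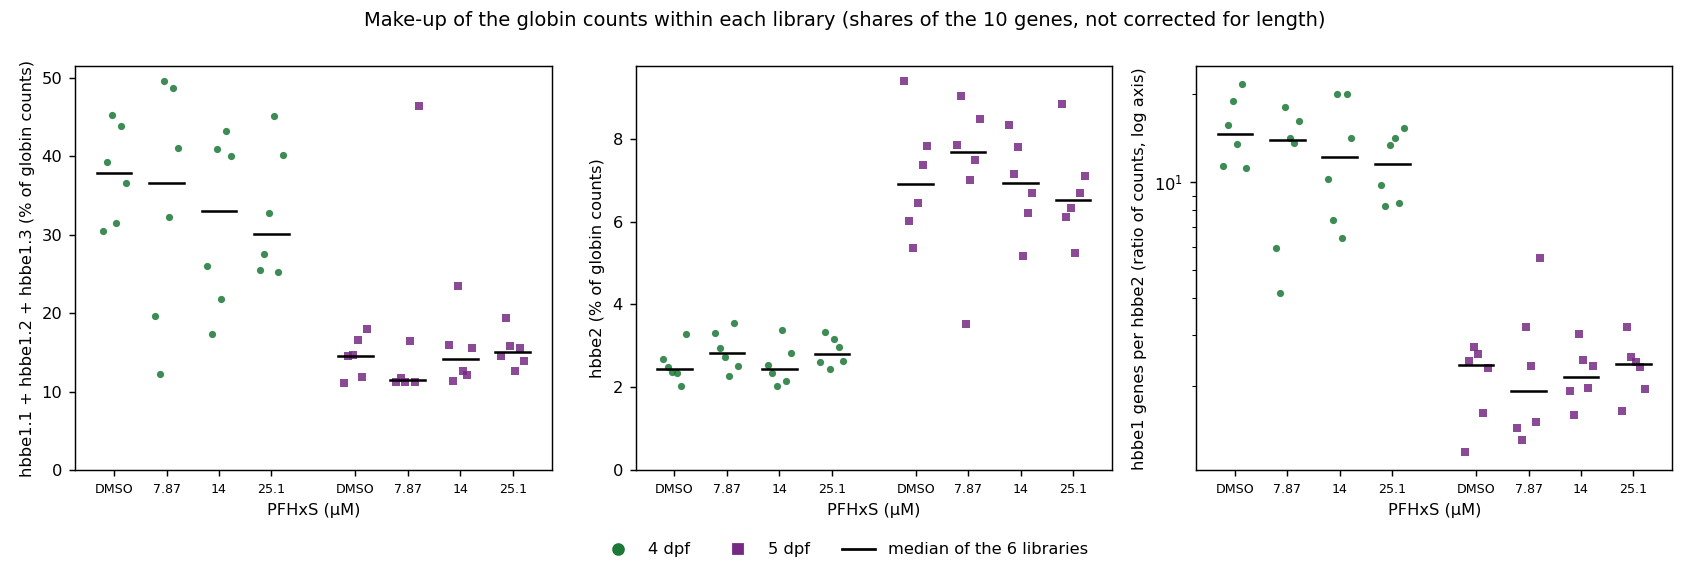
Make-up of the globin counts in every library by PFHxS concentration at 4 dpf (circles) and 5 dpf (squares), with medians of 6 libraries: the share of the 3 hbbe1 genes, the share of hbbe2, and their ratio on a log axis. In DMSO the ratio is 11.2 to 21.7 at 4 dpf and 1.19 to 2.73 at 5 dpf, and library I of 7.87 µM at 5 dpf stands apart with an hbbe1 share of 46.4%.

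α and β chains pair in the protein, and the group medians of their RNA shares shifted towards α in these counts. Single libraries of the ages overlapped at 7.87 and 14 µM. In DMSO the 4 embryonic β genes held a median of 40.8% of globin counts at 4 dpf and 20.6% at 5 dpf, without correction for length. For each count of hbae1.1 and hbae1.3 together there were 0.547 to 1.22 hbbe1 counts at 4 dpf and 0.1802 to 0.292 at 5 dpf in DMSO, with no overlap. At 7.87 µM this ratio overlapped between the ages, at 0.177 to 1.75 and 0.168 to 1.60. It also overlapped at 14 µM (0.272 to 1.04 and 0.175 to 0.455), but not at 25.1 µM (0.433 to 1.31 and 0.198 to 0.317). The sum of hbae1.1 and hbae1.3 is itself uncertain, as its reads may be shared with other genes. All 10 genes together held 0.0524% to 0.0804% of library counts at 4 dpf in DMSO and 0.0302% to 0.0562% at 5 dpf.

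The second comparison sets the adult genes beside the embryonic ones. At both ages hardly any count fell on hbaa1 or hbba1, the 2 adult genes described here. Nothing is shown for hbaa2 and hbba2, whose symbols are not in the count table. The neighbour of hbaa1, si:ch211-5k11.8, had at most 4 counts in a library at 4 dpf and 1.56 at 5 dpf. Of 481132 globin counts in the 24 libraries of 4 dpf, 29 were adult, and of 257845 at 5 dpf, 40 were. Within a library the adult share reached at most 0.0385% at 4 dpf and 0.0636% at 5 dpf, and the share that a count of 0 allows (3 counts) was 0.00692% to 0.0497% per library, for counting error only.

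The adult α gene hbaa1 had a value above 0 in 7 of 24 libraries at 4 dpf and in 14 of 24 at 5 dpf, never above 8 counts. In DMSO all 6 libraries of 4 dpf were at 0, and 2 of 6 at 5 dpf were above it, with 1.61 counts in all. At 4 dpf the exposed libraries held 10.6 counts at 7.87 µM, 8 of them in library G, 3.61 at 14 µM and 5.01 at 25.1 µM. At 5 dpf they held 5.05, 20.0 and 3.61 counts, and at 14 µM 5 of 6 libraries were above 0. With no filter on low counts, edgeR gave hbaa1 an adjusted p between 0.249 and 1 in the 6 comparisons with DMSO, with unadjusted p of 0.00323 at 7.87 µM, 0.0344 at 14 µM and 0.0279 at 25.1 µM at 4 dpf, and of 0.0129 at 14 µM at 5 dpf. So no difference from DMSO was called for hbaa1, at few reads, some of them shared with si:ch211-5k11.8. What size of difference this depth could show was not tested. The share of all genes with an unadjusted p under 0.05 in the fit without the filter is not given here.

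The adult β gene hbba1 had counts in 3 of 24 libraries at 4 dpf and 4 of 24 at 5 dpf, with 4 at most. No group had more than 1 library above 0. Between the ages, edgeR without the filter gave both adult genes an adjusted p of at least 0.177 in all 4 exposure groups. So the lower embryonic counts at 5 dpf were accompanied by at most 9 counts of hbaa1 and hbba1 together in any library.

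**Figure D4:**
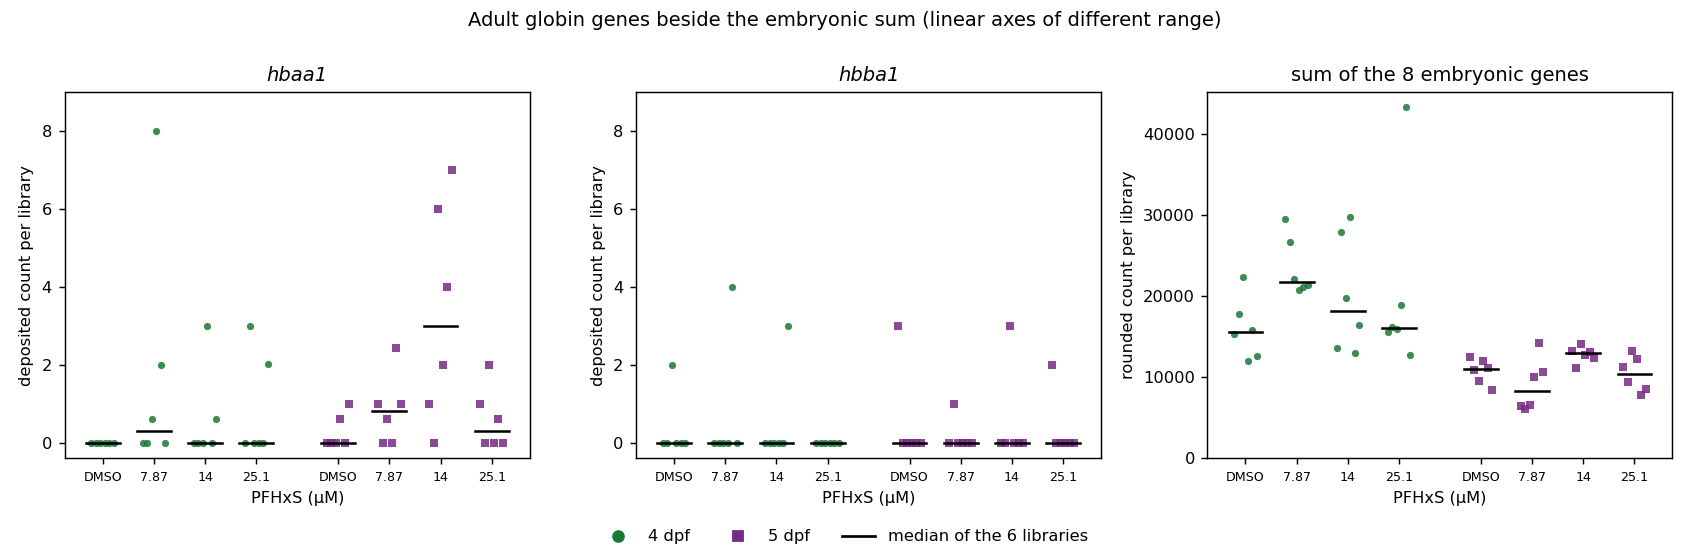
Counts of the adult genes hbaa1 and hbba1 and of the 8 embryonic genes together in every library, by PFHxS concentration at 4 dpf (circles) and 5 dpf (squares), with medians of 6 libraries; the axes have different ranges. The adult genes stay at 8 counts or fewer, while the embryonic sum is 6033 or more in every library.

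Other globin genes of the table were described with the same tests. The embryonic β gene hbbe3 (chromosome 12, 20339413 to 20340544) had at most 6 counts, in 8 of 24 libraries at 4 dpf and 1 of 24 at 5 dpf. The gene zgc:163057 (20336070 to 20337275), named hbae4 in RefSeq, had at most 10 counts. Outside the blood globins, mb, which encodes myoglobin, the oxygen store of muscle, fell at 5 dpf in DMSO by 1.99 ± 0.26 on the log2 scale (edgeR adjusted p = 1.23e-07), from a median of 91.3 to 23.4 CPM. The cytoglobin genes cygb1 and cygb2 (log2 change 0.78 and 1.16, adjusted p = 0.00498 and 0.0139) and ngb, which encodes neuroglobin (1.16, adjusted p = 0.00887), rose, and globin X (xgb) was at 0.44 (adjusted p = 0.592).

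Genes that red cells need beside globin did not change in one direction between the ages in DMSO. Of 13 genes of heme synthesis 3 were called higher and 3 lower, of 15 erythroid transcription factor genes 3 and 1, of 16 red cell membrane and enzyme genes 3 and 4, and of 8 genes of iron uptake 3 and 1. Of all genes tested 20.2% were called lower and 58.8% had a log2 change above 0. The share of all genes called higher is not given here, so these counts are descriptions only. The median log2 changes of these lists were 0.29, 0.11, -0.04 and 0.71, beside 0.20 over all genes. Many of these genes are also used by other cells of the head.

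Among the heme genes, alas2, which encodes the red cell form of the first enzyme of heme synthesis, ran in DMSO from 23.4 to 52.9 CPM with a median of 42.4 at 4 dpf, and from 10.6 to 15.5 CPM with a median of 12.6 at 5 dpf, with no overlap. The log2 change was -1.55 ± 0.28 (edgeR adjusted p = 2.77e-05), and it was called lower at all 4 exposures, with -1.78 at 7.87 µM, -1.36 at 14 µM and -1.59 at 25.1 µM. In DMSO cpox, of the same pathway (-0.57, adjusted p = 0.0154), and the mitochondrial glycine carrier gene slc25a38b (-0.55, adjusted p = 0.0306) also fell. The pathway genes hmbsb (1.49, adjusted p = 0.0101), alad (1.05, adjusted p = 0.0242) and ppox (0.71, adjusted p = 0.0377) rose.

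The gene of the erythroid master regulator gata1a had DMSO libraries from 2.74 to 5.72 CPM at 4 dpf and from 0.663 to 2.14 CPM at 5 dpf, again with no overlap. It fell at all 4 exposures, with a log2 change of -1.24 ± 0.33 in DMSO (edgeR adjusted p = 0.00222), -1.77 at 7.87 µM, -1.34 at 14 µM and -1.32 at 25.1 µM. For alas2 and gata1a the ages did not overlap in DMSO, as for 28.4% of all genes tested. Levels of slc4a1a, cahz and klf1, also from the red cell lists, overlapped between the ages in DMSO. The DMSO medians at 4 and 5 dpf were 25.7 and 17.9 CPM for slc4a1a and 18.1 and 22.1 CPM for cahz. For klf1 no DMSO library had more than 7 counts. The regulators bach1b (log2 change 1.09, adjusted p = 0.000588), lmo2 (1.26, adjusted p = 0.0096) and zbtb7a (1.22, adjusted p = 0.0182) were higher. In the membrane and enzyme list, aqp1a.1 (a water channel, -1.37, adjusted p = 0.000184), prdx2 (a peroxiredoxin, -1.17, adjusted p = 0.00215), nt5c2l1 (-1.05, adjusted p = 0.00575) and creg1 (-1.02, adjusted p = 0.00891) fell. In the same list rhag (an ammonia channel, 1.24, adjusted p = 7.98e-06), cyb5r3 (1.44, adjusted p = 0.00334) and sptb (β spectrin, 0.60, adjusted p = 0.0337) rose. Of the iron genes, the transferrin receptor genes tfr1a and tfr1b (1.14 and 1.25, adjusted p = 0.000633 and 0.000853) and transferrin itself, tfa (2.93, adjusted p = 0.00204), which is also in the liver list, rose, and the iron transporter gene slc11a2 fell (-0.79, adjusted p = 0.00758).

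Markers of other organs moved with age as well. In DMSO 12 of 12 exocrine pancreas genes and 15 of 16 liver genes were called higher at 5 dpf. Of all genes tested 58.8% had a log2 change above 0 and 20.2% were called lower, while the share called higher is not given here. The summed level of the pancreas list was 12.2 to 223 CPM at 4 dpf and 812 to 3503 CPM at 5 dpf, and that of the liver list was 349 to 2371 and 6381 to 12354 CPM. Of 11 endothelium genes 6 were called higher and 2 lower, of 9 neutrophil and macrophage genes 2 and 0, of 6 thrombocyte genes 3 and 1, and of 10 neuron and 10 skeletal muscle genes 2 and 2 each. The part of these tissues in the age difference of the globins was not tested.

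The third comparison asks whether PFHxS changed globin RNA at either age. None of the 8 embryonic genes was called against DMSO of the same age at any of the 3 concentrations, and neither was any other of the 20723 genes (0% in all 6 comparisons by edgeR). DESeq2 called 8, 1, 0, 0, 0 and 1 genes in the 6 comparisons, in order of concentration at 4 and then at 5 dpf, and limma on the quantile normalized values called 1 gene, at 14 µM and 4 dpf. Neither called a globin gene.

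At 4 dpf most of these uncalled differences lay above 0. At 7.87 µM all 8 log2 changes were above 0, with a median of 0.68, and 5 had an unadjusted p under 0.05, as did 12% of all genes. At 14 µM all 8 were above 0, with a median of 0.48, and 4 had an unadjusted p under 0.05, beside 5.05% of all genes. At 25.1 µM 7 of 8 were above 0, with a median of 0.41, and 0 had an unadjusted p under 0.05, beside 2.61% of all genes. With a term for the block of columns (the first 32 or the last 16 of the count table) 7, 7 and 5 of 8 were above 0. Those below it were hbbe1.2 at each concentration and hbbe1.1 and hbbe1.3 at 25.1 µM. Without that term the medians over all genes were 0.05, 0.00 and -0.01, and 55.9%, 50.7% and 48.6% of all genes were above 0. These 3 comparisons share the 6 DMSO libraries, so a low or high control moves all of them together, and the genes within a library are not independent.

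Of the α genes, hbae3 had the smallest p at 7.87 µM. Its libraries ran from 158 to 246 CPM with a median of 203, beside 65.1 to 176 CPM with a median of 94.0 in DMSO. Of the 6 exposed libraries 3 lay above all DMSO libraries, and the log2 difference was 0.87 ± 0.30 (edgeR adjusted p = 0.232, unadjusted p = 0.00565). For hbae1.1 at 14 µM the difference was 1.18 ± 0.44 (edgeR adjusted p = 0.971), and 0.74 without library D. There 3 of 6 libraries, at up to 33.04 CPM, lay above the DMSO range of 3.79 to 8.50 CPM, and the other libraries lay within it. For hbae1.3 the differences at 7.87, 14 and 25.1 µM were 0.66 ± 0.32, 0.84 ± 0.32 and 0.53 ± 0.32.

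Of the β genes, hbbe2 was at 28.5 to 52.0 CPM at 7.87 µM beside 13.5 to 30.1 CPM in DMSO, with 5 of 6 libraries above all DMSO libraries (0.80 ± 0.29, edgeR adjusted p = 0.257). Its differences at 14 and 25.1 µM were 0.67 ± 0.29 and 0.57 ± 0.29. The hbbe1 genes differed less, by -0.02 to 0.69, and hbbe1.1 at 7.87 µM (0.69 ± 0.32, adjusted p = 0.369) was the one with an unadjusted p under 0.05. No member had exposed libraries that did not overlap with DMSO, where 0.256%, 0.106% and 0.0965% of all genes had none at 7.87, 14 and 25.1 µM. The column names end in S numbers from 1 to 16, each used up to 2 times in the first 32 columns and once in the last 16, and what these numbers mark is not stated. Within the first 32 columns, which hold all 6 libraries of 7.87 µM at 4 dpf and 2 of the 6 DMSO libraries, the differences at 7.87 µM were 0.67 for hbae3 and 0.57 for hbbe2, with 7 of 8 members above 0, and the last 16 columns hold none of that group. At 14 µM 7 of 8 were above 0 in the first 32 columns (4 against 2 libraries) and 8 of 8 in the last 16 (2 against 4). At 25.1 µM 7 of 8 were above 0 in the first 32 but 3 of 8 in the last 16, where hbae1.3 was at -0.06, hbae3 at -0.10, hbbe1.1 at -0.37, hbbe1.2 at -0.24 and hbbe1.3 at -0.36.

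**Figure D5:**
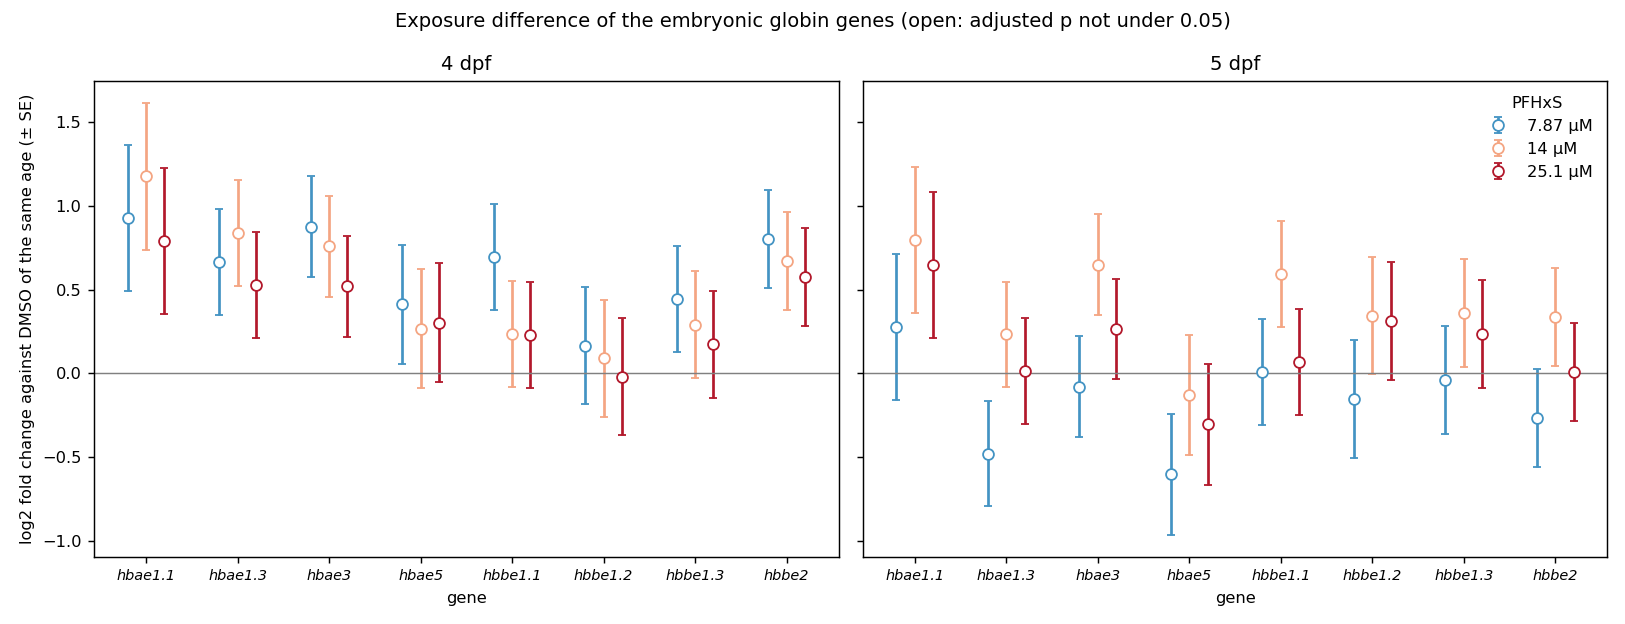
Log2 fold change of each embryonic globin gene against DMSO of the same age, with its standard error, at 3 PFHxS concentrations (6 against 6 libraries each, with the DMSO libraries shared within an age); all points are open because none had an adjusted p under 0.05. At 4 dpf 8, 8 and 7 of 8 points lie above 0 at 7.87, 14 and 25.1 µM, and at 5 dpf 2, 7 and 7. Of all genes tested 48.6% to 55.9% lie above 0 in these comparisons.

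Most markers of muscle, liver and pancreas also lay above 0 at 4 dpf. The skeletal muscle list had 9, 10 and 10 of 10 genes above 0 at 7.87, 14 and 25.1 µM with medians of 0.43, 0.58 and 0.58, and the liver list had 15 of 16 above 0 at each, with medians of 0.72, 1.34 and 1.18. For the exocrine pancreas it was 11, 10 and 12 of 12 (medians 0.74, 0.51 and 1.56) and for thrombocytes 5 of 6 at each (0.70, 0.41 and 0.40). The other lists were mixed, with 6, 9 and 4 of 10 neuron genes (medians 0.04, 0.17 and -0.06), 9, 5 and 8 of 11 endothelium genes (0.07, -0.02 and 0.06) and 6, 4 and 5 of 9 neutrophil and macrophage genes (0.03, -0.02 and 0.20). Summed liver markers ran from 349 to 2371 CPM in DMSO and from 280 to 3948, 52.6 to 6540 and 973 to 3246 CPM in the exposed groups. Summed muscle markers ran from 17757 to 37994 CPM in DMSO and from 15393 to 42567, 17968 to 55485 and 21883 to 45996 CPM. No gene of these lists was called, and the part of these tissues in the globin values was not tested. Of the red cell lists, the membrane and enzyme genes had 12, 14 and 13 of 16 above 0 (medians 0.35, 0.19 and 0.15) and the heme genes 8, 9 and 9 of 13 (medians 0.12, 0.08 and 0.20). The iron uptake genes had 6, 5 and 7 of 8 above 0 (medians 0.18, 0.15 and 0.16), and the erythroid transcription factors 7, 8 and 9 of 15 (medians -0.03, 0.05 and 0.10). The red cell and iron genes with the smallest p at 7.87 µM were fth1a, a ferritin gene (0.87), bpgm (1.11) and hmbsb (1.46), with adjusted p of 0.209, 0.215 and 0.225.

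At 5 dpf the differences from DMSO had medians nearer 0. At 7.87 µM 2 of 8 members were above 0 (median -0.12), at 14 µM 7 of 8 (median 0.35) and at 25.1 µM 7 of 8 (median 0.15). Of all genes tested 51.8%, 53.7% and 52.2% were above 0, with medians of 0.01, 0.02 and 0.01. The number with an unadjusted p under 0.05 was 0, 1 and 0, beside 4.69%, 0.729% and 0.671% of all genes. The 1 was hbae3 at 14 µM, with 51.1 to 134 CPM and a median of 77.1 beside 31.9 to 81.9 CPM and a median of 53.8 in DMSO (0.65 ± 0.30, edgeR adjusted p = 1.00). The library H of 7.87 µM at 5 dpf, at 14.6 CPM, stood apart for hbae1.1: with it the mean was 1.21 times that of DMSO, and without it 0.775 times. At 25.1 µM the direction differed between the first 32 columns (4 against 5 libraries) and the last 16 (2 against 1). Every member but hbae5 lay above 0 in the former and below 0 in the latter, as hbae1.1 did with 0.83 and -0.19. For hbae5 the values were -0.47 and 0.17. At 7.87 µM hbbe1.1 was at 0.38 (3 against 5) and -0.82 (3 against 1).

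The difference between the exposure effects at the 2 ages was tested as an interaction, and none of the 8 members was called at any concentration. At 7.87 µM 3 members had an unadjusted p under 0.05, beside 6.56% of all genes: hbae1.3 (-1.14 ± 0.45), hbbe2 (-1.07 ± 0.41) and hbae3 (-0.95 ± 0.42), each with an edgeR adjusted p of 0.724. At 14 and 25.1 µM 0 members had an unadjusted p under 0.05, beside 2.31% and 1.84% of all genes. The larger age differences at 7.87 µM than in DMSO are thus not shown to differ from those in DMSO. A slope against concentration, fitted on the 24 libraries of an age, was called for no member. The steepest was that of hbae1.1 with 0.028 per µM on the log2 scale at each age, and 0 genes of 18353 (0%) and 1 of 20406 (0.0049%) were called at 4 and 5 dpf.

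Within groups, the members did not all vary together from library to library. After each gene's group mean log2 CPM was taken off, Pearson's r over the 48 libraries was 0.87 between hbbe1.2 and hbbe1.3, 0.81 between hbbe1.1 and hbbe1.3 and 0.77 between hbae1.1 and hbae1.3, pairs of copies among which reads may be divided. It was also 0.77 between hbae3 on chromosome 3 and hbbe2 on chromosome 12. Between hbae1.3 and the 3 hbbe1 genes it was 0.16 at most, although hbbe1.3 lies within the span of hbae1.3. These values are descriptions, since the libraries share depth, scaling and the content of the dissected tissue.

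Likeness was ranked among 12018 genes with a descriptive symbol (names such as si: or zgc: were left out), without the members. The genes whose deviations were most like the mean of the 8 embryonic globins were nt5e (r = 0.80), hspa5 (0.79), ssr1 (0.79), PPP2CA (0.79), ifitm5 (0.78), alas2 (0.77), slc30a7 (0.77) and pdlim5b (0.77). The median over the 12018 genes was 0.07. Of the erythroid transcription factor list, gata1a had the highest r, 0.65, and the list's median was -0.13. The medians of the other lists included 0.54 for skeletal muscle, 0.42 for liver, 0.25 for red cell membrane and enzymes, 0.12 for heme synthesis and -0.41 for neurons. For the mean of the 2 adult genes the highest were acap2 (0.63), plekhm1 (0.61), sox9a (0.60), snai2 (0.59), ATG2A (0.59), tgm1l1 (0.59), zyx (0.59) and cltcl1 (0.59), which at a handful of adult counts is no finding.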

How the data were processed

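The authors deposited a table of expected counts per gene, not normalized, and a table of log2 values after quantile normalization. The tools named in the submitters' processing notes are Partek 8.0.19.0428 and STAR 2.5.3a, and the build is GRCz11; the role of each, the annotation release and the handling of shared reads and strand are not given in the sources used here.

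The deposited expected counts were rounded. Genes were kept with filterByExpr on the 8 groups, which left 20723, and all 48 libraries were fitted as 8 group means with edgeR 4.0.16 (quasi-likelihood F test, TMM factors, no covariate) in R 4.3.3. P-values were adjusted over all genes tested (Benjamini-Hochberg, threshold 0.05). Standard errors were taken as |log2 fold change| over the root of the F statistic. Likeness used log2 CPM with a prior count of 2, and ranked genes with a descriptive symbol averaging at least 1, without the members. TMM factors lay within 0.566 to 1.098 for 4 dpf libraries and 1.10 to 1.925 for 5 dpf libraries.

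The members, gene lists and tests were chosen with earlier results of these data known. All members and other globin genes are named whatever their values, and of the other lists the 3 genes with the smallest p, with all that passed if 10 or fewer; lists of other tissues are given by counts. The scripts were tested on simulated counts. Alternatives were DESeq2 1.42.0, limma 3.58.1 on the quantile values (pseudocount 1), other scalings and filters, fewer libraries, block terms and libraries left out. Replicate pairs all differed by more than counting noise. No sequences are printed.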

Additional observations from a re-analysis of the deposited data

Results flagged for a closer look

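In 9 of 80 groups of 6 libraries tested for a single far value, the highest library stood further from the others than Dixon's test allows at its 95% level. No low library did. Chance alone gives this in about 1 of 20 groups if values are normal and groups independent. The values used were CPM and shares without a log, and genes of the same libraries vary together. So 9 of 80 is not shown to be more than chance gives. At 25.1 µM and 5 dpf library F was highest for 3 genes, with 358 CPM for hbae1.3, 44.6 CPM for hbbe1.2 and 19.8 CPM for hbbe1.3. At 7.87 µM and 5 dpf library I had 54.7 CPM of hbbe1.1 and an hbbe1 share of 46.4% of globin counts, and library H had 14.6 CPM of hbae1.1. At 14 µM and 4 dpf library D had 6.86 CPM of hbae5 and library C 269 CPM of hbbe1.2. In DMSO at 5 dpf library C had 40.9 CPM of hbbe2. Without the library in question no count of members called at that exposure changed by more than 1.5 times.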

How the results depend on the processing

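Of 288 age values under other settings, 263 kept their direction and side of the threshold, as did 367 of 384 with 1 library left out. In 2 of the 288, both of hbbe2, the sign changed in a value that was called before or after. All exposure, interaction and slope values kept their side, and their signs changed only in values that were not called. The hbbe1 genes were called lower at every exposure under every alternative run, in DMSO with log2 changes of -1.64 to -2.65 (hbbe1.1), -2.09 to -2.99 (hbbe1.2) and -2.23 to -3.16 (hbbe1.3). Total counts in place of TMM moved the median of all genes between the ages to 0.88, 1.06, 1.00 and 1.02 (DMSO to 25.1 µM). This scaling turned hbbe2 to 0.0452 at 7.87 µM, 0.689 at 14 µM and 0.487 (not called) at 25.1 µM. It ended the calls of hbae1.3 (-0.07), hbae3 (-0.25) and hbae5 (-0.21) in DMSO, of hbae1.1 (-0.37) at 7.87 µM, of hbae1.3 (-0.62), hbae3 (-0.34) and hbae5 (-0.62) at 14 µM, and of hbae1.3 (-0.51) and hbae3 (-0.44) at 25.1 µM. Limma on the quantile values ended those of hbae1.3 (-0.17) and hbae3 (-0.57) in DMSO, of hbae1.3 (-0.47) and hbae3 (-0.52) at 14 µM, and of hbae1.3 (-0.45) at 25.1 µM; the cause was not tested. At 7.87 µM the call of hbae1.1 also ended with the libraries of that comparison alone (-1.14) and with a term for the block of columns (-1.13), as did that of hbbe2 with the latter (-0.56). With the libraries of the comparison alone hbae1.1 was also called in DMSO (-0.53) and at 25.1 µM (-0.76). Within the first 32 and the last 16 columns, hbbe1.3 in DMSO was at -3.21 and -2.53, the latter with 1 library of 5 dpf. At 14 µM hbae1.1 was at -0.93 (4 against 4 libraries) and 0.52 (2 against 2).

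Groups share letters, and the labels do not say whether a letter pairs the samples. Over 113 pairs of libraries with the same letter the correlation of deviations was -0.395 to 0.594 (median 0.011), with 40 over 0.1. Within an age it was -0.151 to 0.594 over 51 pairs (median 0.137), with 30 over 0.1, among them 5 of 6 pairs of letter B. Pairs with different letters were not set beside these, so whether letters link libraries was not tested. With the letter as a replicate block, 4, 7, 6 and 6 members were called lower between the ages (DMSO to 25.1 µM), and 0 between exposures. The share of all genes called lower in that fit is not given here, so these counts are descriptions only. The block ended the calls of hbae1.3 (-0.69, adjusted p = 0.0559) and hbae5 (-0.84, adjusted p = 0.0647) in DMSO and of hbae1.1 (-1.10, adjusted p = 0.0597) at 7.87 µM, by edgeR.

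The alternative per coding length was not run, since exon lengths of the build were not used here. The adult genes hbaa1 and hbba1 lie at the limit of depth.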

Other observations

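In the 4 dpf libraries the balance of α and β globin counts differed widely within groups, and library B held the highest share of hbae1 counts (hbae1.1 with hbae1.3) in each of the 4 exposure groups. This was noticed after the values were seen, and what the letter stands for is not given in the labels. The sum of hbae1.1 and hbae1.3 was rarely a whole number of reads, so these shares are uncertain. The share in library B was 55.7% in DMSO, 69.5% at 7.87 µM, 64.0% at 14 µM and 58.9% at 25.1 µM. The lowest share in the same groups was 37.1% (library F), 27.8% (H), 41.4% (C) and 34.4% (E). The hbbe1 share of library B was the lowest of its group in DMSO (30.5%), at 7.87 µM (12.3%) and at 14 µM (17.4%), and second lowest at 25.1 µM (25.5%, beside 25.3% in library F). The hbbe2 share of the 4 libraries named B lay between 2.34% and 2.94%, within the range of the other libraries of 4 dpf. No library of 5 dpf has the letter B.

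At 5 dpf the hbae1 share was 51.4% to 67.2% in all libraries but library I of 7.87 µM, where it was 29.1%. The genes on either side of the larger cluster, chosen by position, had these levels: nprl3 had DMSO medians of 6.67 CPM at 4 dpf and 6.51 CPM at 5 dpf, and kank2 6.04 and 8.86 CPM.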
